A study of Mus musculus with 12 samples.

Results

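The peaks of monomethylated lysine 4 of histone H3 (H3K4me1) were compared between C2C12 cells treated with the LSD1 inhibitor S2101 and C2C12 cells treated with vehicle. C2C12 is an established mouse myoblast line whose cells fuse into myotubes in low-serum medium. Both H3K4me1 lists come from experiment 1 of the series, and all of their peaks were used as deposited. The vehicle list holds 40432 peaks and the S2101 list 20664, together 61096 of the 134900 peaks in the 6 lists of H3K4me1, H3K4me2 and H3K4me3. Per the labels, the cells of both lists were differentiating myoblasts. They were kept for 48 h, to day 2, in differentiation medium with horse serum that held either 10 µM S2101 or the vehicle, and no genotype differed between them. Chromatin was crosslinked and sonicated, and the fragments bound by the same H3K4me1 antibody were sequenced. Each treatment has 1 library, so no difference between treatments has a replicate check, and none was tested. The reads behind each list are unknown. A peak list from bulk chromatin cannot tell fewer cells that carry the mark from less of the mark per cell.

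LSD1 (Kdm1a) is a flavin-dependent demethylase. Its substrates on H3K4 are the dimethylated and monomethylated forms, and its chemistry does not allow it to act on the trimethylated one. H3K4me1 is laid down largely by the methyltransferases Kmt2c and Kmt2d and marks enhancers, poised and active, along with promoter flanks. Enhancers often lie in groups, so the mark is read here by its number, width and spacing as well as by place. The comparison asks how the places listed for H3K4me1 differ when the demethylase is inhibited during early myogenic differentiation.

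The S2101 list held fewer H3K4me1 peaks than the vehicle list on each of the 19 autosomes and on the X chromosome. The ratio of peak numbers, S2101 over vehicle, was 0.511 for the whole lists and 0.50 ± 0.055 over autosomes (SD, n = 19 autosomes, which are not replicates). The highest ratio was that of chromosome 15, 0.647, with 3112 vehicle and 2012 S2101 peaks. The lowest autosomal ratio was that of chromosome 7, 0.414, with 1681 and 696 peaks. Chromosome 15 also had the highest density in both lists, 31.1 peaks per Mb of listed span with vehicle and 20.1 with S2101. Chromosome 7 had the lowest autosomal density in both, 11.3 and 4.66 per Mb. Chromosome 11, with 3636 and 2026 peaks, came next to chromosome 15 by density, at 30.6 and 17.1 per Mb. Chromosomes 15 and 11 thus led both lists, and chromosome 7 came last among the autosomes in both. The copy number of the chromosomes in these cells was not measured here, and its part in these densities was not tested.

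Chromosome X stood apart from the autosomes for this mark. It carried 77 vehicle and 21 S2101 H3K4me1 peaks, or 0.48 and 0.131 per Mb, and 14.3% of its vehicle peaks overlapped an S2101 peak. H3K4me3 on the same chromosome was listed in 433 peaks with vehicle and 453 with S2101. H3K4me2 was listed there in 487 and 229 peaks. The H3K4me2 number ratio was at least 1.02 on every autosome, where the S2101 list held more H3K4me2 peaks than the vehicle list. Over the whole lists the H3K4me2 peaks were narrower with S2101, with a median of 552 bp against 1342 bp. They covered 15.9 Mb with S2101 against 34.1 Mb with vehicle, so the higher number was not a greater covered length.

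Autosomes on which the vehicle H3K4me1 peaks were wider had the higher number ratios and the larger shares of vehicle peaks overlapped by an S2101 peak. Across the 19 autosomes, the median vehicle width and the number ratio had a Pearson correlation of 0.90 (Spearman 0.87), and 0.82 without chromosome 15. The median vehicle width and the share overlapped had one of 0.93 (Spearman 0.95), and 0.90 without chromosome 15. The median vehicle score and the number ratio had a Pearson correlation of 0.94 (Spearman 0.88), and 0.89 without chromosome 15. The chromosomes share both libraries, so these values describe the lists and carry no p-value.

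**Figure D1:**
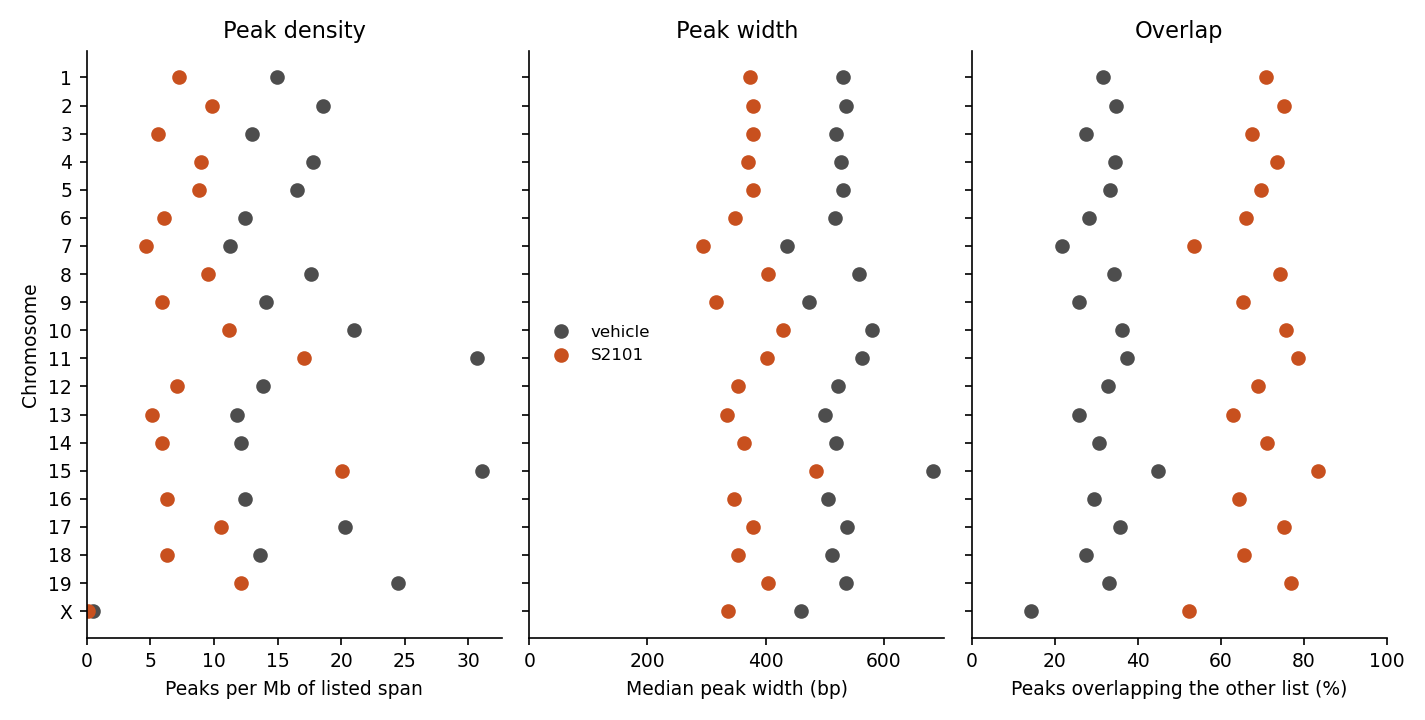
Number of H3K4me1 peaks per Mb of listed span, median peak width in bp and share of peaks that overlap the other list in percent, by chromosome. Each point is a chromosome in the vehicle list (grey) or the S2101 list (orange). Chromosome 15 is at the upper end of all panels and chromosome 7 at the lower end of the autosomes, and chromosome X has almost no peaks.

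Wide H3K4me1 peaks were scarce in the S2101 list. Peaks under 300 bp were more numerous with S2101, 5407 against 1873 with vehicle, and every wider class held fewer. From 500 to under 1000 bp there were 17321 vehicle and 5063 S2101 peaks, a ratio of 0.292. From 1000 to under 2000 bp there were 4800 and 659, a ratio of 0.137. Peaks from 2000 to under 5000 bp numbered 686 and 24, and those of 5000 bp or more 21 and 1. Median widths were 535 bp (vehicle) and 384 bp (S2101), and the ratio of medians over the autosomes was 0.702 ± 0.024 (SD, n = 19 autosomes), with all 19 below 1. Only 0.658% of S2101 peaks exceeded 1458 bp, the width that the widest 5% of vehicle peaks pass.

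Width went with score within each list. Vehicle peaks with a deposited score from 100 to below 110 had a median width of 326 bp, and those scoring 1000 or more had one of 2332 bp. In the S2101 list the same classes had medians of 272 bp and 2248 bp. The part that the reads of each library had in score and width was not tested.

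When the vehicle list was reduced to its 20664 highest-scoring peaks, to match the S2101 list in length, its median width was 754 bp and the width ratio 0.509. At the top of both lists the ratio was similar. The 500 highest-scoring peaks had median widths of 2620 bp (vehicle) and 1244 bp (S2101), a ratio of 0.475. The 5000 highest-scoring peaks had medians of 1325 bp and 666 bp, a ratio of 0.503. These are equal numbers of peaks, and so larger parts of the shorter S2101 list. The 20664 vehicle peaks reached down to a score of 179.2, and those of S2101 to 100. Width went with score, so this choice by itself raises the vehicle median. Within a score class the medians were closer, 646 bp (vehicle) and 568 bp (S2101) from 200 to below 300. From 500 to below 1000 they were 1354 and 1273 bp. The scores of the lists need not share a scale.

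**Figure D2:**
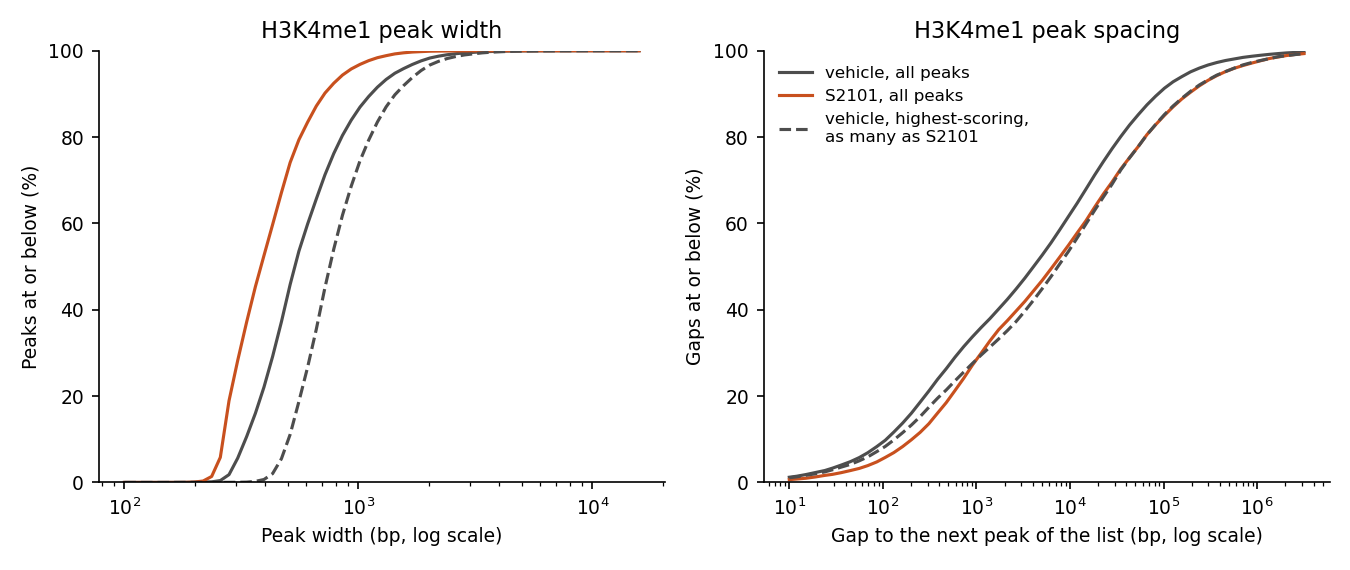
Cumulative share of H3K4me1 peaks by width (left, bp, log scale) and of gaps between neighbouring peaks by length (right, bp, log scale) for all vehicle peaks, all S2101 peaks, and the 20664 highest-scoring vehicle peaks. The S2101 width curve lies left of both vehicle curves, with medians of 384, 535 and 754 bp, and the S2101 gap curve runs close to that of the vehicle list of equal length.

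At places listed in both treatments, the S2101 peak was mostly the narrower. It mostly either lay inside the vehicle peak or reached past it at 1 end. There were 10293 pairs of peaks that overlapped only each other, with a median width of 715 bp for the vehicle peak and 416 bp for the S2101 peak. The S2101 peak was narrower in 9008 pairs (87.5%). The width ratio, S2101 over vehicle, was below 0.5 in 3523 pairs, which is 34.2% of those compared, and above 2 in 34 pairs. It lay wholly inside the vehicle peak in 5521 pairs (53.6%), and the vehicle peak lay inside the S2101 peak in 327 (3.18%). In the remaining 4445 pairs each peak reached beyond the other at one end. At the median over all pairs, the S2101 peak began 118 bp inside the left edge and ended 119 bp inside the right edge. Left and right follow the genome coordinates, so these medians do not show that both ends were alike within a pair. The midpoints were 122.5 bp apart at the median (quartiles 54 and 233 bp), and 91.3% of S2101 midpoints lay within the vehicle peak.

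The S2101 peak was the narrower in most pairs of each class when both widths set the class. When the pairs were sorted into 5 classes of equal size by the geometric mean of both widths, so that neither list alone set the order, the median width ratio was 0.705 in the narrowest class and 0.575 in the widest. The S2101 peak was narrower in 85.1% and 91.7% of these pairs. Sorted by the vehicle width alone, which by itself pulls the ratio up among narrow vehicle peaks, the 163 pairs with a vehicle peak under 300 bp had a median ratio of 1.07, and the S2101 peak was narrower in 39.3% of them. The widths of the members went together in part. Over pairs, the Spearman correlation of the widths was 0.367 and that of the scores 0.337, which describes pairs from 1 library a side. The median S2101 width was 298 bp for vehicle peaks under 300 bp and 725 bp for those of 2000 bp or more.

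Wide vehicle peaks were also met by several S2101 peaks. There were 1965 vehicle peaks with at least 2 S2101 peaks, with a median width of 1450 bp, and 60.4% of their bases lay in S2101 peaks. One of them held 8. The reverse, an S2101 peak over 2 or more vehicle peaks, occurred 726 times. Of all vehicle H3K4me1 bases, 24.2% lay in S2101 peaks, and of all S2101 bases 69.7% lay in vehicle peaks.

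H3K4me1 peaks lay close together in both lists, and the median gap was longer in the S2101 list, but not longer than in a vehicle list of the same length. The gap to the next peak had a median of 4075 bp with vehicle (quartiles 427 and 23795 bp) and 6517 bp with S2101 (779 and 42438 bp). For the 20664 highest-scoring vehicle peaks it was 7407 bp (681 and 42546 bp). Gaps under 1 kb made up 34.7% of all gaps with vehicle, 28.5% with S2101 and 28.5% in the vehicle list of equal length. Gaps under 100 bp made up 9.25%, 5.44% and 7.91%. Over autosomes the median gap was 4450 ± 1129 bp in the vehicle list and 8354 ± 4021 bp in the S2101 list (SD, n = 19 autosomes). It was shortest on chromosome 15 in both lists, 2777 and 3152 bp. The longest was that of chromosome 13 with vehicle, 7642 bp, and that of chromosome 7 with S2101, 18453 bp.

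For comparison, the median gap between H3K4me3 peaks was 51038.5 bp in the vehicle list and 48881 bp in the S2101 list, and between H3K4me2 peaks 26937 and 8915 bp. The difference between the marks was not tested, and H3K4me3 comes from another experiment.

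Peaks were stitched into clusters when the gap between neighbours was at most the stitching distance, which lies between 12 and 13 kb and is given exactly with the processing. In the vehicle list, 49.9% of H3K4me1 peaks (20156) lay in the 2168 clusters of 5 or more peaks and 16.3% (6572) stood alone. In the S2101 list, 41.4% (8563) lay in 1011 such clusters and 22.6% (4679) stood alone. The 20664 highest-scoring vehicle peaks gave 38.8% and 23.1%, so that at equal length the share in such clusters was higher with S2101. Clusters of 20 or more peaks numbered 132 with vehicle, 38 with S2101 and 20 in the vehicle list of equal length. In clusters of 5 or more, peaks covered a median of 25.8% of the span with vehicle and 18.9% with S2101. In the H3K4me2 lists 9.34% (vehicle) and 18.4% (S2101) of peaks lay in clusters of 5 or more, and in the H3K4me3 lists 3.55% and 3.67%.

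Vehicle peaks in crowded places met an S2101 peak more often than peaks that stood alone. Over the whole vehicle list, 33.0% of peaks were overlapped by an S2101 peak by at least 1 bp. Among peaks without a neighbour within the stitching distance, 1051 of 6572 were met, or 16.0% (95% Wilson interval 15.1 to 16.9%, which covers counting error only, here and below). The share was 24.3% for pairs, 29.9% in clusters of 3 to 4, 37.1% in clusters of 5 to 9, 45.2% in clusters of 10 to 19, and 49.7% in clusters of 20 or more (48.0 to 51.3%). Within the clusters of 5 or more, inner peaks were met in 44.2% of cases (43.4 to 45.0%) and the outermost peak on either side in 34.9% (33.5 to 36.3%). Inner peaks also had the higher median score, 221 against 186, and the larger median width, 606 against 548.5 bp, and the part of either in this difference was not tested. In the S2101 list, of which 72.5% overlapped a vehicle peak, the share was 54.8% for single peaks (53.3 to 56.2%) and 90.8% in clusters of 20 or more (88.8 to 92.4%).

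Score moved with cluster size, from a median of 148 for single vehicle peaks to 242 in clusters of 20 or more, and width from 467.5 to 644.5 bp. With the vehicle list cut into 10 score bins of equal size, peaks in clusters of 5 or more were met more often than single peaks in all 10 bins. The difference was 26.2 percentage points without regard to score and 13.35 with the score held. With the width held instead it was 15.1 points. Over autosomes the difference was 24.8 ± 3.81 points (SD, n = 19 autosomes), from 15.3 to 30.6, and it was above 0 on all 19. In the lowest score bin 14.9% of clustered and 6.33% of single peaks were met, and in the highest bin 85.7% and 74.3%.

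**Figure D3:**
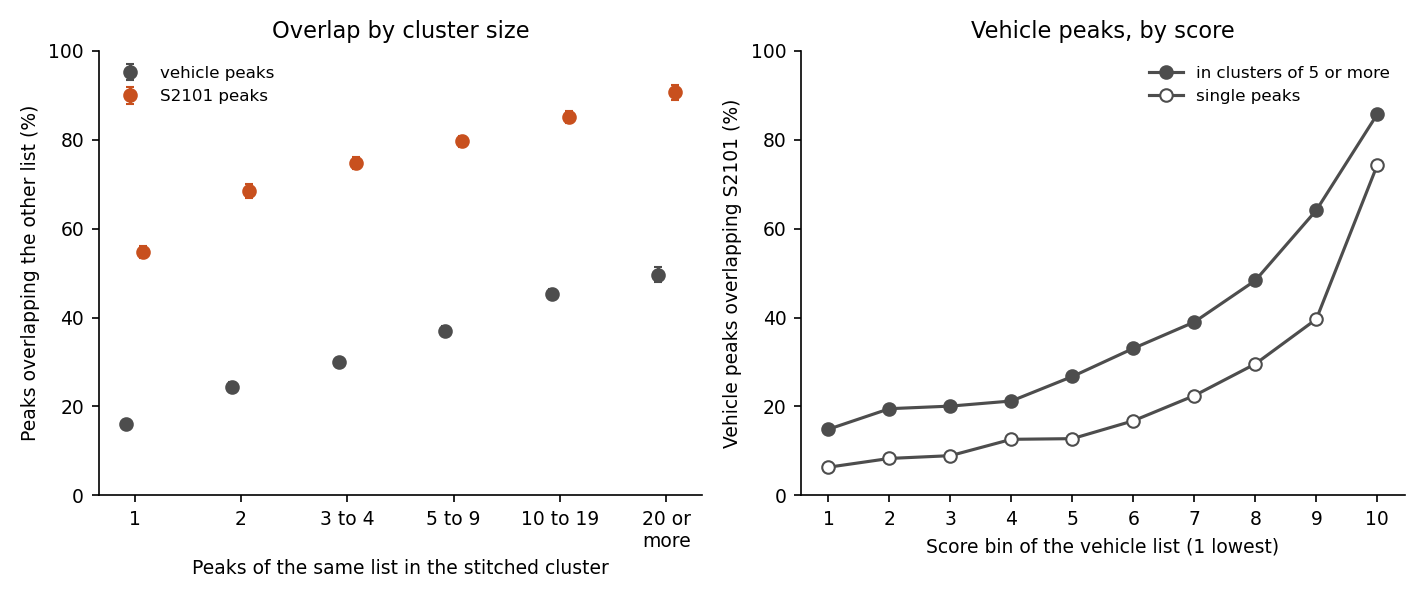
Left, share of H3K4me1 peaks that overlap a peak of the other list in percent, by the number of peaks of the same list in the stitched cluster (error bars, 95% Wilson intervals, some smaller than the points). Right, share of vehicle peaks that overlap an S2101 peak in percent, in 10 score bins of the vehicle list, for peaks in clusters of 5 or more and for single peaks. The share runs from 16.0% to 49.7% for vehicle peaks, and clustered peaks lie above single peaks in each score bin.

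Clusters were also stitched over both lists at once, and sized by the number of separate regions that the peaks of both lists form. Regions of S2101 alone count toward this size, so the sorting itself fixes part of the ratios and counts that follow. Clusters of a single region held 5743 vehicle and 1908 S2101 peaks, a ratio of 0.332. Clusters of 5 to 9 regions had a ratio of 0.539, and the 184 clusters of 20 or more regions held 4499 and 3171 peaks, a ratio of 0.705. By covered length the ratios were 0.232, 0.357 and 0.44. All 658 clusters of 10 to 19 regions and all 184 larger ones held peaks of both treatments. Of the 6659 single regions, 884 were listed in both, 4828 with vehicle only and 947 with S2101 only.

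Some of the most crowded H3K4me1 places held as many peaks with S2101 as with vehicle, over a shorter covered length. The vehicle cluster with the most peaks lay on chromosome 11 (mm9, 117066228 to 117215834, 149.6 kb). Its 64 vehicle peaks covered 66311 bp, and the 61 S2101 peaks within the same bounds covered 37245 bp. An S2101 peak overlapped 35 of those 64. The highest score there was 3100 with vehicle and 1888 with S2101, each within its own list. H3K4me2 was listed there in 11 peaks over 28428 bp with vehicle and in 16 over 11053 bp with S2101. H3K4me3 was listed in 4 peaks over 9149 bp and 3 over 9349 bp.

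The S2101 cluster with the most peaks lay on chromosome 15 (77626736 to 77747580, 120.8 kb) and overlapped another of the 5 leading vehicle clusters (77616572 to 77743002). It held 58 S2101 peaks over 47747 bp, against 39 vehicle peaks over 64585 bp. Within the bounds of that vehicle cluster there were 57 S2101 peaks over 47265 bp and 47 vehicle peaks over 71277 bp. Choosing and bounding a cluster by the peaks of 1 list favours that list in number, here and in the other clusters named. A cluster on chromosome 14 (26283024 to 26383969) held 47 S2101 peaks over 29906 bp and 44 vehicle peaks over 53452 bp, with no H3K4me3 peak in either treatment. On chromosome 15 (83236953 to 83325372), 44 S2101 peaks covered 28319 bp where 28 vehicle peaks covered 44529 bp. On chromosome 8 (87208793 to 87340206), 48 vehicle peaks covered 76830 bp and 45 S2101 peaks 41820 bp. Inside it lay an S2101 cluster (87235780 to 87322830) of 41 S2101 peaks over 39893 bp and 37 vehicle peaks over 67342 bp. Another cluster on chromosome 14 (26528576 to 26600446) held 33 S2101 peaks over 17368 bp and 29 vehicle peaks over 35586 bp. In each of these places the S2101 peaks were the shorter in sum, whether or not they were the more numerous.

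On chromosome 4, 2 of the leading vehicle clusters held fewer peaks with S2101 by both measures. The one at 154487763 to 154612445 held 51 vehicle and 35 S2101 peaks over 39895 and 16229 bp. The one at 45447584 to 45540903 held 48 and 31 peaks over 42586 and 16435 bp. Of the 20 clusters with the most vehicle peaks, 10 overlapped one of the 20 with the most S2101 peaks, and of the leading 100 of the vehicle list 49 overlapped one of the S2101 list.

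**Figure D4:**
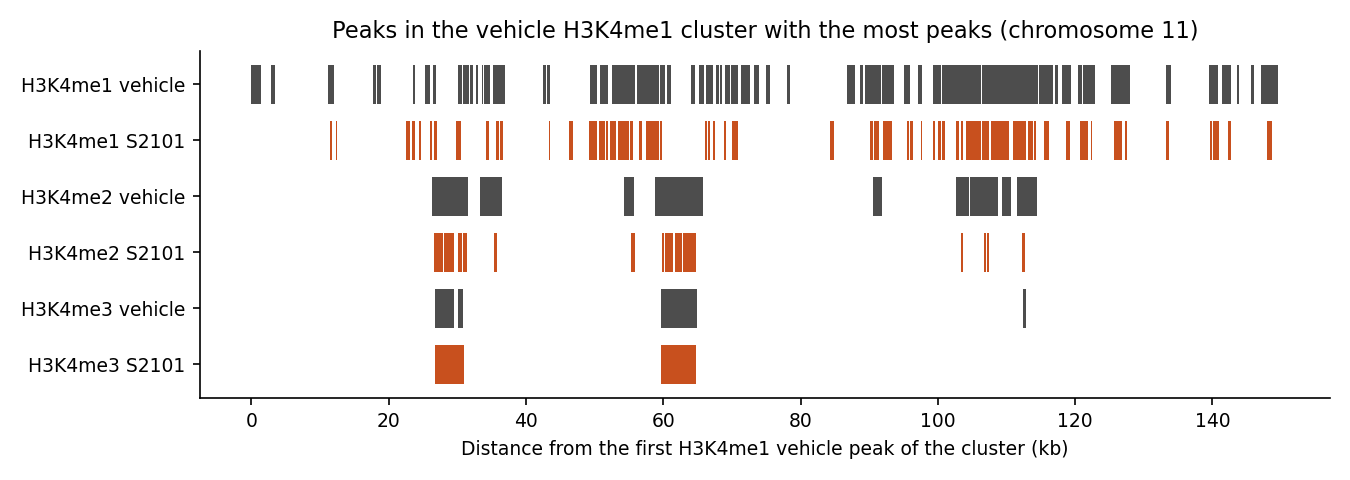
Peaks of H3K4me1, H3K4me2 and H3K4me3 with vehicle (grey) and S2101 (orange) along the vehicle H3K4me1 cluster with the most peaks, on chromosome 11; the x axis is the distance in kb from its first H3K4me1 vehicle peak, and each bar is a deposited peak to scale. Of the 64 vehicle H3K4me1 peaks 35 overlap an S2101 peak, and the 61 S2101 peaks, some of them between vehicle peaks, cover 37245 bp against 66311 bp.

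Large clusters listed in 1 treatment alone were few and modest. Every vehicle cluster of 10 or more peaks held an S2101 peak within its bounds, 559 of 559 with 10 to 19 peaks (99.3 to 100%) and 132 of 132 with 20 or more (97.2 to 100%). More peaks and a longer span by themselves make such a meeting likely, so these counts follow in large part from cluster size. Of the 1477 clusters of 5 to 9, 122 held none. Among these, 2 shared the highest number, 9 peaks. The one on chromosome 12 (71633587 to 71660577) covered 4200 bp and had no H3K4me2 or H3K4me3 peak, with the nearest S2101 H3K4me1 peak 19.65 kb away. The one on chromosome 1 (136797802 to 136810897) was 101.9 kb from the nearest S2101 peak. Clusters of 8 peaks on chromosome 8 (111233110 to 111248076) and chromosome 15 (74818659 to 74830180) overlapped H3K4me3 peaks of both treatments. The last of these 5 lay on chromosome 3 (60372778 to 60393393), with 7 peaks.

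S2101 clusters without a vehicle peak were smaller. The one with the most peaks lay on chromosome 7 (56612979 to 56625197), with 4 peaks over 1434 bp and a top score of 191.6. The next held 3 peaks each, on chromosome 12 (111921632 to 111927239), chromosome 4 (131897470 to 131910514), chromosome 6 (83092921 to 83095174) and chromosome 3 (141995124 to 142008694). The one on chromosome 4 adjoined a vehicle peak, and the one on chromosome 6 lay 0.316 kb from one. No S2101 cluster of 5 or more peaks lacked a vehicle peak, which the size of such clusters by itself makes likely.

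Many H3K4me1 peaks without a counterpart lay close to a peak of the other list. Of the vehicle peaks, 16.2% (6540) did not overlap an S2101 peak but lay up to 1 kb from one, which brings the share within 1 kb to 49.1%. A further 13.7% lay 1 to 5 kb away, and 7.6% (3073) more than 100 kb away. Among the vehicle peaks that overlapped none, the median distance was 7335 bp (quartiles 1075 and 35137 bp). From S2101 to vehicle the distances were shorter. Of the S2101 peaks, 85.0% lay within 1 kb of a vehicle peak and 91.1% within 5 kb, and 190 (0.92%) lay more than 100 kb away. The median for those that overlapped none was 1343 bp (quartiles 310 and 8744 bp). A list with fewer peaks gives longer distances to it, and with the vehicle list of equal length the medians were 4687 bp from vehicle and 4536 bp from S2101, with 49.0% and 58.5% overlapping.

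Peaks far from the other list were narrower, scored lower within their own list and were more often single than those that overlapped it. Vehicle peaks more than 100 kb from an S2101 peak had a median width of 452 bp and a median score of 141, and 53.8% of them were single. Those that overlapped an S2101 peak had medians of 761 bp and 296, and 7.89% were single. S2101 peaks more than 100 kb from a vehicle peak had a median width of 295.5 bp and a median score of 112, and 89.5% were single, against 425 bp, 157 and 17.1% for those that overlapped one. Unmatched vehicle peaks up to 1 kb from an S2101 peak lay in clusters of 5 or more in 64.6% of cases, as did 63.8% of those that overlapped one.

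The most distant vehicle peaks were all on chromosome X, where S2101 peaks are rare. The first lay at 130137970 to 130138395, 26.9 Mb from the nearest S2101 peak, with a score of 139.3, and the next at 130139105 to 130139919 scored 295.2. The others lay at 130164453 to 130164854, 130943403 to 130943858 and 137044580 to 137044878, with scores of at most 136. The most distant S2101 peak lay on chromosome 17 (41013666 to 41013934), 2.14 Mb from a vehicle peak, with a score of 105. The next were on chromosome 9 (28377004 to 28377271), chromosome X (91458870 to 91459204), chromosome 4 (70197545 to 70197906) and chromosome 5 (42234120 to 42234353). Their scores were at most 112.4 and their widths at most 362 bp. Those on chromosomes X and 5 overlapped H3K4me3 peaks of both treatments.

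**Figure D5:**
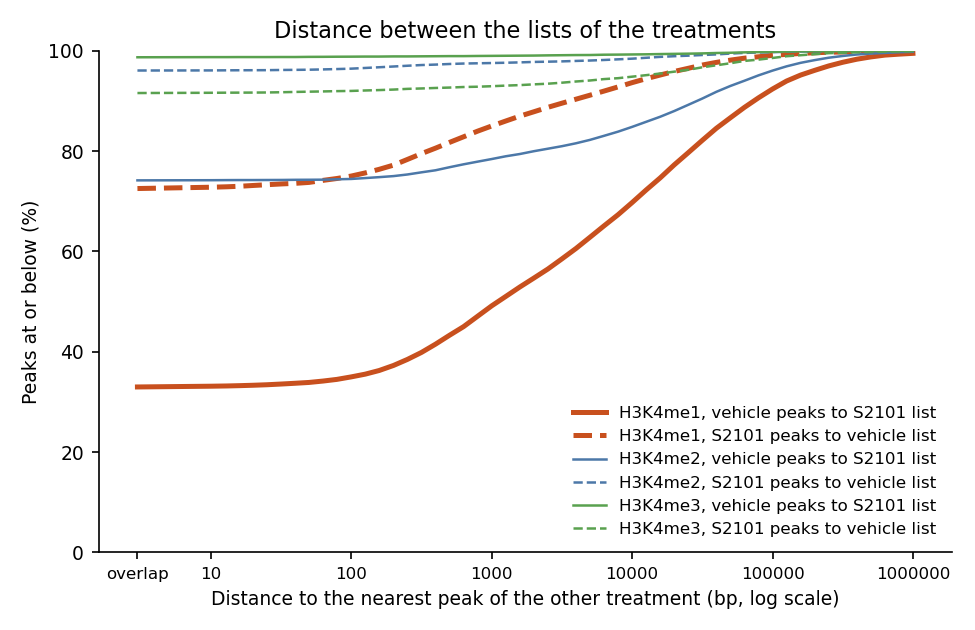
Cumulative share of peaks in percent by the distance to the nearest peak of the same mark in the other treatment (bp, log scale; the leftmost point is overlap), from vehicle to S2101 (solid) and from S2101 to vehicle (dashed), for H3K4me1, H3K4me2 and H3K4me3. The H3K4me1 vehicle curve starts at 33.0% and reaches 49.1% at 1 kb, below all other curves.

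Up to 1 kb, fewer H3K4me1 peaks than peaks of the other marks had a counterpart, taken in the same direction. At up to 1 kb, 49.1% of vehicle H3K4me1 peaks had an S2101 peak, against 78.4% for H3K4me2 and 99.0% for H3K4me3. From S2101 to vehicle these shares were 85.0%, 97.6% and 92.9%. The unmatched vehicle peaks of H3K4me2 and H3K4me3 lay farther off, with medians of 16633 and 16299 bp. The vehicle H3K4me1 list was the longest of the 6, and the difference between marks was not tested.

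Over windows of 1 Mb the lists followed each other. Of 2577 windows in the listed span, 1538 held H3K4me1 peaks of both treatments, 249 of vehicle only and 31 of S2101 only. Vehicle peaks were the more numerous in 1709 windows, S2101 peaks in 57, and 52 held equal numbers. The counts per window had a Pearson correlation of 0.951 (Spearman 0.936) over the 1818 windows with a peak, which share both libraries and their regional peak density. Among the 739 windows with 20 or more vehicle peaks, the ratio of S2101 to vehicle peaks had a median of 0.5 (quartiles 0.406 and 0.615) and ran from 0.1 to 1.18, and 1 window held more S2101 peaks. Sorted by vehicle H3K4me3 peaks, which the H3K4me1 counts do not set, windows with 1 to 2 of them had a ratio of 0.447, those with 11 to 20 had 0.552 and those with 21 or more had 0.54.

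The window with the most vehicle H3K4me1 peaks was on chromosome 1 (137000001 to 138000000), with 161 vehicle and 81 S2101 peaks. Adjoining windows on chromosome 10 (79000001 to 80000000 and 80000001 to 81000000) held 152 vehicle peaks each, with 110 and 109 S2101 peaks. The window on chromosome 11 that contains the cluster mapped above (117000001 to 118000000) held 145 and 129, and that on chromosome 19 (5000001 to 6000000) held 134 and 69. The largest excess of S2101 peaks was on chromosome 15 (83000001 to 84000000), with 73 vehicle and 86 S2101 peaks. Even there vehicle peaks covered 91918 bp and S2101 peaks 53486 bp. The next was on chromosome 5 (134000001 to 135000000), with 14 and 18 peaks. The other windows chosen for this excess, on chromosomes 13 (89000001 to 90000000), 7 (103000001 to 104000000) and 5 (120000001 to 121000000), held at most 7 S2101 peaks.

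The widest S2101 H3K4me1 peaks lay within vehicle peaks at the top of the vehicle score range, with 1 exception. The widest of all, on chromosome 11 (3039389 to 3048819, 9431 bp), had a score of only 259.9, and the vehicle peak over it one of 166. The others lay on chromosome 15 (77651680 to 77656341, 4662 bp, score 2308, and 77631080 to 77634353, 3274 bp), chromosome 8 (87246118 to 87249873, 3756 bp) and chromosome 10 (80873707 to 80876843, 3137 bp). Each of these 4 lay wholly within vehicle H3K4me1 that scored 3100 and had no H3K4me3 peak in either treatment.

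The share of vehicle H3K4me1 peaks met with S2101, 33.0% over the whole list, varied with the distance to H3K4me3, the mark of active promoters. Vehicle peaks that overlapped a vehicle H3K4me3 peak were met in 21.2% of 5572 cases (20.2 to 22.3%), those up to 1 kb from one in 31.4% (29.5 to 33.4%), and those 5 to 25 kb away in 38.5% of 10781 (37.5 to 39.4%). Beyond 250 kb the share was 23.0% of 1170 (20.7 to 25.5%). At 1 to 5 kb it was 38.1%, at 25 to 100 kb 34.1% and at 100 to 250 kb 29.6%. The median score was 172 over H3K4me3 and 173 up to 1 kb. It was 198 at 1 to 5 kb and 192.5 at 5 to 25 kb, where the shares were close. Farther out it fell with the share, to 184 for 25 to 100 kb, 170 for 100 to 250 kb and 154 beyond. The part of the score in the shares was not tested. From S2101 to vehicle the shares lay closer together near promoters, 71.7% over S2101 H3K4me3 peaks and 75.3% at 5 to 25 kb, and 58.0% beyond 250 kb (53.3 to 62.6%). Over the whole S2101 list the share was 72.5%. The median distance to H3K4me3 was 19409 bp for vehicle and 18007 bp for S2101 peaks.

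Outside H3K4me3, vehicle H3K4me1 peaks that also carried H3K4me2 were met with S2101 more often than those without. Of 1228 such peaks with H3K4me2 in both treatments, 53.2% were met (50.4 to 56.0%), and of 4654 with H3K4me2 in vehicle only 47.4% (46.0 to 48.8%). Of 286 with H3K4me2 in S2101 only, 49.0% were met (43.2 to 54.7%). Of the 27708 peaks with H3K4me2 in neither treatment, 31.9% were met (31.3 to 32.4%), near the 33.0% of the whole vehicle list. In that order the median scores were 298, 260, 233 and 173 and the median widths 749, 687, 621.5 and 517 bp, and the part of score and width in these shares was not tested. Over H3K4me3 the shares were 23.7% of 5014, 20.3% of 1396, 23.7% of 38 and 22.2% of 108 for the same classes. Together these hold more peaks than the 5572 over vehicle H3K4me3 given above, so H3K4me3 overlap was not counted the same way in both.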

How the data were processed

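The deposited files are BED lists of peaks with a score per peak, which the authors' peak caller wrote. MACS, run in Galaxy, called them in 1 library per list, per the file headers. The tools Bowtie2 and deepTools and the build mm9 are listed per the submitters' processing notes. How the aligner and caller were set, how duplicates were handled, which input was used and how many reads there were is not given in the sources used here, so the depth is unknown, nothing was scaled for it, and no precision per sample can be given. A library with less depth or enrichment can lower the number, width and score of its peaks. Coordinates are 1-based. Scores were used to rank or filter peaks within a list. The alternative at 200 sets the same number in both lists, whose scores need not share a scale.

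All comparisons are descriptive, with 1 library a side. Peaks met when they shared at least 1 bp, clusters were stitched over gaps of up to 12.5 kb, and windows were 1 Mb. In the score-held difference, each of the 10 bins was weighted by n1 × n2 / (n1 + n2), the numbers of clustered and single peaks. The listed span of a chromosome runs from the first to the last peak of the 6 lists. Alternatives were a score of at least 200, lists of equal length, joining within 1 kb, stitching at 5 or 25 kb, a reciprocal overlap of 50%, a distance of up to 1 kb, midpoints, autosomes only, and, added after seeing the data, leaving out chromosome 15, holding the width and a distance of up to 1 kb for the other marks. The interval functions passed 11 checks on simulated lists, including bedtools 2.31.1. The regions named are, per list, the 5 clusters with the most peaks, the 5 with the most peaks and none of the other list, the 5 peaks farthest from the other list, the 5 widest S2101 peaks, and 5 windows each by vehicle number and by S2101 excess. The lists, readouts and rules were chosen with earlier results of these data known. Genes were not attached, because the gene table at hand is of another build, so cell identity was not checked against marker genes. Inputs (4) and H3 samples (2) were not analysed here. Python 3.11.15, numpy 2.4.6, pandas 2.3.3 and matplotlib 3.10.9 were used.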

Additional observations from a re-analysis of the deposited data

How the results depend on the processing

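With the score at 200 or more in both lists, whose scores need not share a scale, the number ratio was 0.298, the width ratio 0.811, the median gap 8174 bp (vehicle) and 22908.5 bp (S2101), the share of vehicle peaks met 22.7% and the median distance of the unmatched ones 26068 bp. With lists of equal length, the width ratio was 0.509, which the choice of high-scoring and so wider vehicle peaks by itself lowers. The vehicle gap was then 7407 bp, the vehicle share in clusters of 5 or more 38.8% and the share met 49.0%. For pairs alone the width ratio was 0.606. With peaks joined within 1 kb, the gaps were 14192.5 and 18937 bp and the shares in clusters 25.5% and 19.5%. Stitching at 5 kb gave 30.2% and 24.8%, and at 25 kb 66.8% and 56.0%. A reciprocal overlap of 50% gave 15.5% of vehicle peaks met and a clustered-minus-single difference of 11.7 points, and a distance of up to 1 kb gave 49.1% and 42.5 points. That difference was 13.35 points with the score held and 15.1 with the width held. Without chromosome 15, the share met was 32.0%. Up to 1 kb, 78.4% of vehicle H3K4me2 and 99.0% of H3K4me3 peaks were met. At equal list length the median gap was longer, and the share in clusters lower, with vehicle than with S2101 (6517 bp and 41.4%), the reverse of the full lists; the cause was not tested. Number and width ratios stayed below 1 and the clustered-minus-single difference above 0 in each alternative run for them. Of 38 alternatives for 11 results, 10 moved the value by less than the SD over autosomes or the counting interval. Leaving out chromosome 15, holding the width and the 1 kb distance for H3K4me2 and H3K4me3 were chosen after seeing the data. Read depth limits all of these values and is unknown.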

Other observations

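Most of the highest-scoring H3K4me1 peaks of each list overlapped a peak of the other. Of the 500 highest-scoring vehicle peaks, 98.0% overlapped some S2101 peak, and of the 500 highest-scoring S2101 peaks 99.6% overlapped some vehicle peak. For the 5000 highest-scoring peaks these shares were 80.4% and 92.3%. Fewer overlapped a peak among as many highest-scoring ones of the other list. For the leading 500 this share was 39.6% from vehicle and 46.0% from S2101, and for the leading 5000 it was 45.7% and 52.1%.

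Joined within 1 kb, H3K4me1 peaks formed 26417 regions with vehicle and 14775 with S2101, a ratio of 0.559, and the longest joined region spanned 47409 bp with vehicle and 31266 bp with S2101. Of the 5676 S2101 peaks that overlapped no vehicle peak, 34.8% lay within the bounds of a stitched vehicle cluster, and 25.3% within one of 5 or more peaks.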
